A study of Mus musculus with 30 samples.

Results

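The 43 genes described here encode the conjugating enzymes of phase II metabolism in mouse liver. The rule that defines them reads the symbol alone and takes every gene of the count table with a fitting symbol. It covers glutathione transferases (Gst, Mgst), UDP-glucuronosyltransferases (Ugt1 to Ugt3) and sulfotransferases (Sult). They are 43 of the 14173 genes in the table, and comprise 22 glutathione transferases, 14 glucuronide transferases and 7 sulfotransferases. The glucuronide class is set by symbol. It includes Ugt3a1 and Ugt3a2, although the Ugt3a2 enzyme transfers sugars other than glucuronic acid. In each comparison, 41 of them passed the filter on low counts. Gstp2, with diet means between 1.72 and 7.38 normalized counts, and Ugt3a1, with diet means between 3.95 and 5.56, did not pass it in these comparisons and are given without a test. A further 24 mouse symbols that fit the same naming, among them Sult1e1, Sult3a1, Mgst2 and Ugt1a9, named no row of the count table and were not analysed here.

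Liver RNA from 30 male C57BL/6J mice was measured, 6 for each of 5 diets that were fed for 12 weeks from 12 weeks of age. All mice were of the same strain, sex and age (6 months) and were killed after a 4 h fast, and none carried a transgene or drug treatment by the labels. The Cas-20% diet held 20% casein with 0.57 g methionine and 0.41 g cysteine per 100 g, and the Cas-5% diet held 5% casein with 0.15 g and 0.1 g. The Soy-20% diet held 20% soy protein with 0.22 g methionine and 0.22 g cysteine, the Soy-20% + SAA diet had both sulfur amino acids added to 0.58 g and 0.41 g, and the Soy-10% diet, labelled as 11.5% soy protein, held 0.13 g of each. During the lead-in, mice of the casein groups ate Cas-20% and mice of all soy groups ate Soy-20%, so the protein source was also that of the lead-in diet.

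Phase II enzymes attach a polar group to drugs, hormones, bile acids and reactive products of metabolism, so that they can be excreted. Glutathione transferases use glutathione, which is built from cysteine. Sulfotransferases use the activated sulfate donor PAPS, whose sulfate comes largely from the breakdown of cysteine, while glucuronosyltransferases use UDP-glucuronate, which is made from glucose and contains no sulfur. Liver is a main site of all 3 reactions, and hepatocytes carry most of their capacity.

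The values were 3′ tag counts, which mark the ends of transcripts and do not depend on transcript length. Totals ran from 7694015 to 14565542 counts per liver with a median of 10803734.5. All 8 hepatocyte markers were detected, and their summed normalized count lay between 854182 and 1085144 in every diet. In the Soy-20% + SAA diet, libraries 3 to 6 stood apart: their counts rose with the G+C content of the last 200 transcript bases by 0.0586 to 0.2083 log2 units for each 10% G+C, while the slope lay between -0.064 and 0.031 in the other 26 libraries. The 3′ ends of the glucuronide transferases had a median G+C of 29.5%, against 32.5% in the sulfotransferases, 47.75% in the glutathione transferases and 41% over all genes in the table, so the classes were exposed to this slope to different degrees. For each member named as changed by soy restriction, the change against the Soy-20% + SAA livers is therefore given also without libraries 3 to 6, with the slope as a covariate, and against the unsupplemented Soy-20% livers. Without libraries 3 to 6 only livers 1 and 2 of Soy-20% + SAA remain. Slopes above 0.031 occurred in that diet alone, so the covariate is partly tied to diet. In both settings a call can be lost though the change stays similar, so the change is printed with its SE.

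Near copies limited which single counts could be read. In Ugt1a1, Ugt1a5 and Ugt1a6a, 100% of the 50-base windows in the last 400 transcript bases were shared with other Ugt1a genes, which splice different first exons to common ones. The share was 91.2% in Gstp1 and 100% in Gstp2, 87.2% in Gsta1 and 46.7% in Gsta2, and 10.3% in Sult5a1. It was at most 1.4% in the other members. Counts of the genes with shared ends are uncertain. Sums are given for the Ugt1a genes, for Gstp1 with Gstp2 and for Gsta1 with Gsta2. Windows were also shared with genes that these sums leave out: Gm3776 for Gsta1 and Gsta2, Gm10639 for Gsta2, and Gstp-ps for Gstp1 and Gstp2. Sult5a1 shared 10% or more of its windows with no single gene and has no sum, and its values below carry that limit.

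Many of the genes sit side by side in the genome (GRCm38). On chromosome 3, 7 Gstm genes lie within 149.1 kb, on chromosome 5, 8 Ugt2 genes lie within 534.4 kb, on chromosome 10, 3 Gstt genes lie within 63.3 kb, and on chromosome 1, 4 Ugt1a genes lie within 124.9 kb. Promoter sequences of RefSeq (GRCm38.p6) were found for 39 of the 43 members. All 7 Ugt2b promoters and that of Ugt3a1 held a 13-letter motif (GTTA and TTAAC with any 4 letters between), which resembles the site of HNF1, a hepatocyte transcription factor. That made 8 of 39 members (20.5%), against 46 of 27025 promoters of all genes (0.17%), on either strand in the 250 bases before the start. The motif was chosen after the Ugt2b promoters had been read, so its share among members is a description. The antioxidant response element letters TGACNNNGC were present in 3 of 39 members (7.7%; Gsta3, Gstm5 and Mgst1) and in 10.15% of all promoters. The STAT5-type letters TTCNNNGAA were present in 2 of 39 (5.1%; Ugt1a6a and Gsta1) and in 7.18% of all promoters. The 250 bases before the start of 5 Ugt2b genes are printed 5′ to 3′ with the motif in capitals, because 4 of these neighbours were higher and 1, Ugt2b1, was lower after casein restriction.
Ugt2b5 (chr5:87140341-87140590, minus strand): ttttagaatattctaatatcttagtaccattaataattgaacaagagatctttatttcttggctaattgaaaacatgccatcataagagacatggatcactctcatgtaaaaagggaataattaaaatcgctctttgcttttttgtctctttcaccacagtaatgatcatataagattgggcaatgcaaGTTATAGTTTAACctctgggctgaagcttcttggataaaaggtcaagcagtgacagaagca
Ugt2b36 (chr5:87092556-87092805, minus strand): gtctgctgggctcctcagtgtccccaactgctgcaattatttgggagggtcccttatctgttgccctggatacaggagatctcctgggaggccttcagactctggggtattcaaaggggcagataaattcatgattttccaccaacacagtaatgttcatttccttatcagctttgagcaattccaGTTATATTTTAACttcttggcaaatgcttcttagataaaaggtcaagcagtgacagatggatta
Ugt2b35 (chr5:87000610-87000859, plus strand): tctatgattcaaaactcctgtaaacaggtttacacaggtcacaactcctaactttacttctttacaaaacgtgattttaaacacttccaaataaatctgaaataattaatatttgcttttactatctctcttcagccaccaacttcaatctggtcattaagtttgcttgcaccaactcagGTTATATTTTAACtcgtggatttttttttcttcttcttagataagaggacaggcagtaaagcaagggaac
Ugt2b34 (chr5:86906938-86907187, minus strand): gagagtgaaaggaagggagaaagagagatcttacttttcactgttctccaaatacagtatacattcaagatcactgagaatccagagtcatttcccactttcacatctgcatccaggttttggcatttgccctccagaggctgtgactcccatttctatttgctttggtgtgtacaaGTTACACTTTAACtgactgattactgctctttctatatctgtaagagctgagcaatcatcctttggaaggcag
Ugt2b1 (chr5:86926504-86926753, minus strand): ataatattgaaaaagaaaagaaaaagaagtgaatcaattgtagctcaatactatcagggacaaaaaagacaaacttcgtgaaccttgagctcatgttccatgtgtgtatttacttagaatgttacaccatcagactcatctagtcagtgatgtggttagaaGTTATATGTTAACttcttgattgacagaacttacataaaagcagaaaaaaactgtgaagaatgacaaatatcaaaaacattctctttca
The motif ends 48 bases before the start in Ugt2b5, 51 in Ugt2b36, 57 in Ugt2b35, 60 in Ugt2b34 and 76 in Ugt2b1. It was thus present in the 4 printed genes that were higher and in the printed gene that was lower. Ugt2a3, a further gene of the cluster that was lower after casein restriction, held no match. Ugt2b37 and Ugt2b38 held the motif and were called in neither restriction comparison.

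Diet was associated with a change in 32 of the 41 tested members when all 5 diets were compared in a single test (edgeR quasi-likelihood F test, adjusted p of 0.05 or less), while 43.4% of all genes tested passed it. These were 9 of 13 glucuronide transferases, 16 of 21 glutathione transferases and 7 of 7 sulfotransferases. In whole liver, fewer cells of a type and less RNA per cell cannot be told apart, and this holds for every value below.

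The first question was how restriction of casein, which lowers protein and sulfur amino acids together, changed these transcripts. Casein restriction (Cas-5% against Cas-20%) changed 22 of 41 members, 7 higher and 15 lower, with a median log2 fold change of -0.2 over the 41 and 0.02 over all genes. Over all genes tested 24.9% changed, 11.6% higher and 13.3% lower. Among sulfotransferases 5 fell and 1 rose, among glutathione transferases 7 fell and 2 rose, and among glucuronide transferases 3 fell and 4 rose. The 6 livers of one diet did not overlap the 6 of the other in 15 members (36.6%), against 12.9% of all genes. With the slope as a covariate the split was 5 higher and 17 lower, and with all 30 livers in 1 fit it was 5 and 15. For these settings the share over all genes was not counted, so the splits have no background beside them.

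The second question was whether restriction of soy protein, to about the same content of sulfur amino acids, did the same. Soy restriction with the sulfur amino acid-matched control (Soy-10% against Soy-20% + SAA) changed 20 members, 13 higher and 7 lower, against a background of 17.0%, 8.51% higher and 8.47% lower. The median over the members was 0.12, and it was -0.01 over all genes. The diets did not overlap in 17 members (41.5%; all genes, 6.22%). The count was 12, 9 higher and 3 lower, with the slope as a covariate (background 2.90%), and 13, 11 higher and 2 lower, without libraries 3 to 6 (background 2.54%). Against the unsupplemented Soy-20% livers 4 members changed (background 0.866%): Gstm1 and Ugt2b5 were higher (background 0.319%) and Ugt1a5 and Sult5a1 lower (background 0.546%). Only Gstk1 and Ugt1a5 did not overlap between these diets, both with Soy-10% livers below (all genes, 1.34%). The count of 4 changed members became 0 without Soy-20% liver 1 or 2 or without Soy-10% liver 2, 3, 5 or 6, 1 without Soy-10% liver 1, and 2 without Soy-20% liver 4.

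**Figure D1:**
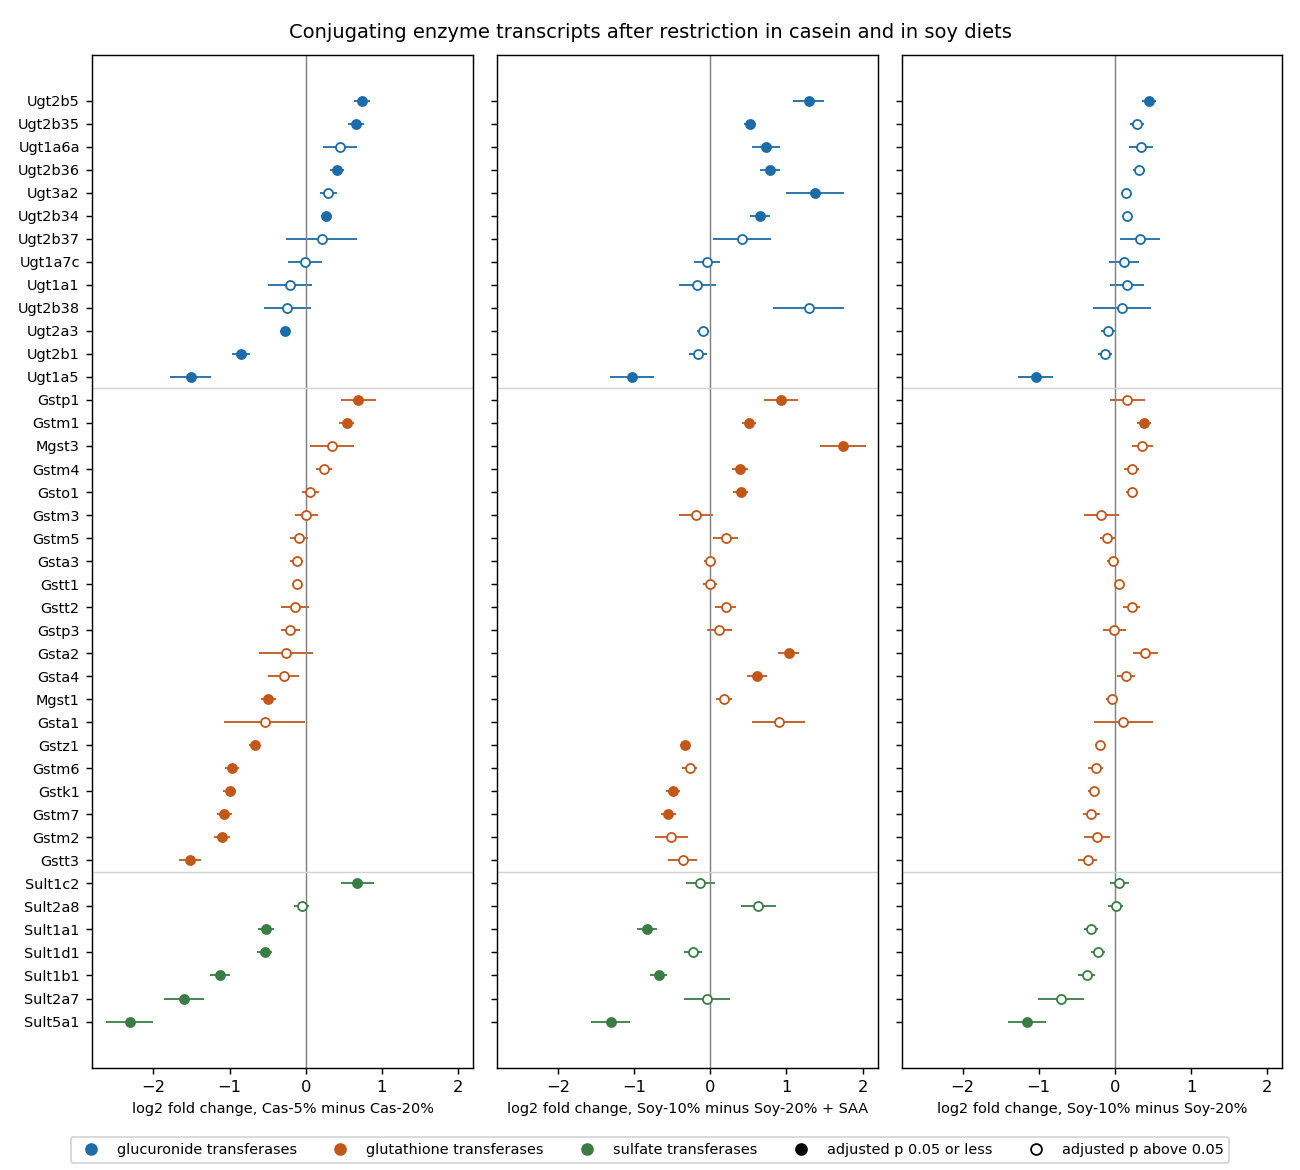
Log2 fold change (horizontal axis) with its SE of the 41 tested genes, by class, for casein restriction, soy restriction with the supplemented control and soy restriction with the unsupplemented control; filled points had an adjusted p of 0.05 or less. In the casein panel 15 of 22 filled points lie below 0, in the supplemented soy panel 13 of 20 lie above 0, and 4 are filled in the unsupplemented soy panel.

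Casein and soy restriction were compared in separate livers. Of the 22 members that changed with casein and the 20 that changed with soy against Soy-20% + SAA, 13 changed in both in the same direction, which is 59.1% of the casein calls and 65.0% of the soy calls. Over all genes, the genes called in both in the same direction were 29.4% of the casein calls and 43.1% of the soy calls. The 13 were Ugt2b5, Ugt2b34, Ugt2b35, Ugt2b36, Gstm1 and Gstp1, which were higher, and Ugt1a5, Gstk1, Gstm7, Gstz1, Sult1a1, Sult1b1 and Sult5a1, which were lower. No member was called in opposite directions. Without libraries 3 to 6 the number was 8, 6 higher and 2 lower, which is 61.5% of the member soy calls against 70.3% over all genes. With the slope covariate in the soy comparison it was also 8, or 66.7% against 72.8%. As a share of the soy calls, the members were thus above all genes with all libraries and below them in these 2 settings. As a share of the casein calls, the 8 members were 36.4% in both settings. Over all genes that share was 7.28% without libraries 3 to 6 and 8.48% with the slope covariate.

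The glucuronide transferases divided within the Ugt2 cluster. After casein restriction Ugt2b5, Ugt2b35, Ugt2b36 and Ugt2b34 rose and Ugt2b1 and Ugt2a3 fell, all of them in that cluster on chromosome 5. Enzymes of the Ugt2 family conjugate steroid hormones, bile acids and many drugs. In what follows, values are the lowest, the median and the highest normalized count of the 6 livers of a diet, and fold changes are log2 values ± SE with edgeR adjusted p.

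Ugt2b5 counts were 4759, 6278 and 7589 on Cas-20% and 8929, 10077 and 11224 on Cas-5%. Every liver of the restricted diet lay above every control liver, and the change was 0.74 ± 0.11 (adjusted p = 0.00011). Of the soy diets, counts were 7331, 9186 and 9969 in Soy-20% livers, 3154, 4293 and 7601 in Soy-20% + SAA livers and 9895, 12456 and 13240 in Soy-10% livers. Soy-10% livers lay above all Soy-20% + SAA livers and overlapped Soy-20%. The soy change was 1.29 ± 0.20 (adjusted p = 0.0013) against Soy-20% + SAA, 0.72 ± 0.11 (adjusted p = 0.0052) without libraries 3 to 6, 0.74 ± 0.09 (adjusted p = 0.0011) with the slope covariate and 0.45 ± 0.09 (adjusted p = 0.033) against Soy-20%. It was thus called in each of these 4 comparisons, while its size ranged from 0.45 to 1.29. Against Soy-20% it was not called when any 1 of 7 single livers was left out, with adjusted p up to 0.096.

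Ugt2b35 counts were 953, 1176 and 1304 on Cas-20% and 1511, 1723 and 2250 on Cas-5%, a change of 0.66 ± 0.10 (adjusted p = 0.00015). Ugt2b36 counts were 4018, 4730 and 5312 on Cas-20% and 5443, 6147 and 7275 on Cas-5%, a change of 0.41 ± 0.09 (adjusted p = 0.0028). Ugt2b34 counts were 3084, 3452 and 3691 on Cas-20% and 3752, 4016 and 4564 on Cas-5%, a change of 0.27 ± 0.07 (adjusted p = 0.0092). For these 3 genes, too, the 2 casein diets did not overlap. In soy, the change against Soy-20% + SAA was 0.52 ± 0.08 (adjusted p = 0.0011) in Ugt2b35, 0.78 ± 0.13 (adjusted p = 0.0023) in Ugt2b36 and 0.65 ± 0.13 (adjusted p = 0.0065) in Ugt2b34, and it was 0.29, 0.32 and 0.16 against Soy-20%, with none of the 3 called there. Without libraries 3 to 6 it was 0.50 ± 0.09 (adjusted p = 0.0083), 0.53 ± 0.10 (adjusted p = 0.013) and 0.32 ± 0.08 (adjusted p = 0.046) in the same order, and with the slope covariate 0.45 ± 0.10 (adjusted p = 0.024), 0.42 ± 0.10 (adjusted p = 0.029) and 0.29 ± 0.08 (adjusted p = 0.069), so that the Ugt2b34 call was lost under the covariate.

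Ugt2b1 went the other way after casein restriction. Its counts were 4045, 6228 and 7066 on Cas-20% and 2850, 3255 and 3555 on Cas-5%, with no overlap and a change of -0.85 ± 0.12 (adjusted p = 5e-05). In the soy diets its counts were 4403, 4836 and 6216 in Soy-20% livers, 3981, 5045 and 6610 in Soy-20% + SAA livers and 4169, 4635 and 5326 in Soy-10% livers, which overlap, and neither soy comparison was called, at -0.16 ± 0.12 (adjusted p = 0.38) and -0.13 ± 0.09 (adjusted p = 0.61). With the slope covariate, soy restriction gave -0.45 ± 0.11 (adjusted p = 0.042). Ugt2a3, which acts on bile acids, had 1930, 2190 and 2323 on Cas-20% and 1607, 1696 and 2046 on Cas-5%, a change of -0.27 ± 0.07 (adjusted p = 0.011) in diets that overlap. Ugt2b37 and Ugt2b38, the 2 cluster members with the fewest counts (diet means of 16.5 to 25.4 and of 17.9 to 42.7), were called in neither restriction comparison. Ugt2b38 gave 1.29 ± 0.47 (adjusted p = 0.069) for soy.

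**Figure D2:**
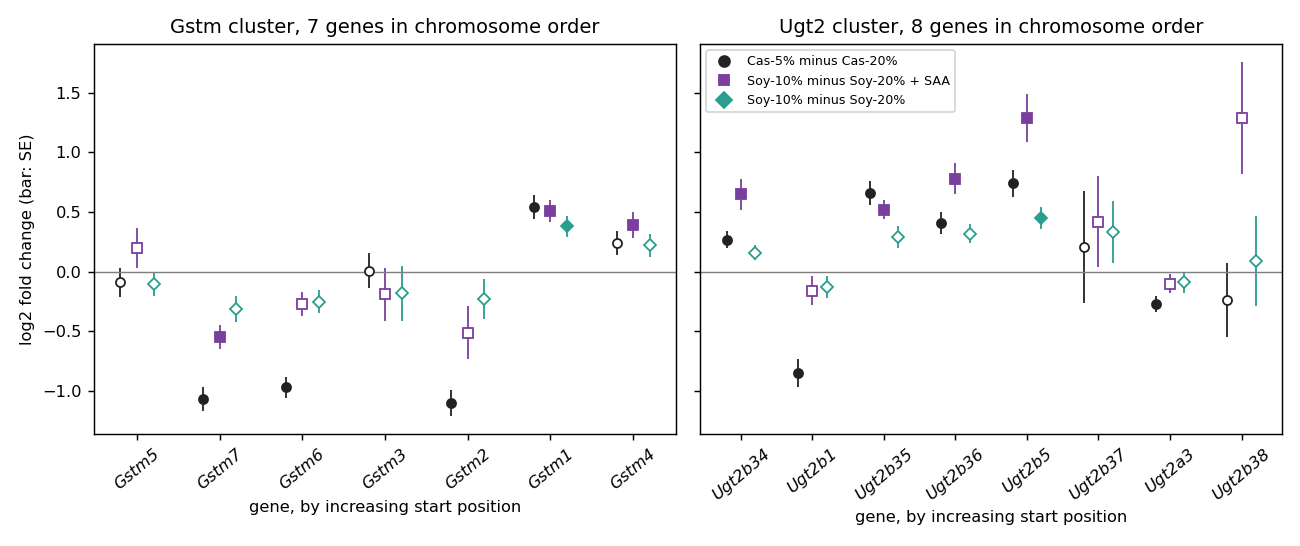
Log2 fold change with SE (vertical axis) of the 7 Gstm and the 8 Ugt2 genes in chromosome order, for casein restriction (circles), soy restriction against Soy-20% + SAA (squares) and soy restriction against Soy-20% (diamonds); filled symbols had an adjusted p of 0.05 or less. Neighbours differ in direction: Gstm2 at -1.10 beside Gstm1 at 0.54, and Ugt2b1 at -0.85 beside Ugt2b35 at 0.66 after casein restriction.

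Ugt3a2, whose enzyme transfers sugars other than glucuronic acid, had a soy value that depended on the libraries that stand apart. Its 3′ end has 21.5% G+C. Counts were 1807, 2133 and 2821 on Cas-20%, 2283, 2630 and 3408 on Cas-5%, 2121, 2553 and 2729 in Soy-20% livers, 379, 710 and 2137 in Soy-20% + SAA livers and 2672, 2758 and 2921 in Soy-10% livers. Within the Soy-20% + SAA diet the mean was 2090 in livers 1 and 2 and 555 in livers 3 to 6. The soy change was 1.38 ± 0.38 (adjusted p = 0.026) with all libraries, 0.40 ± 0.07 (adjusted p = 0.011) without libraries 3 to 6, 0.51 ± 0.14 (adjusted p = 0.067) with the slope covariate and 0.14 ± 0.06 (adjusted p = 0.35) against Soy-20%. The first of these was not called when Soy-20% + SAA liver 3 or 5 was left out (adjusted p up to 0.055). Casein restriction gave 0.30 ± 0.11 (adjusted p = 0.051).

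The Ugt1a genes, among them Ugt1a1, the enzyme that conjugates bilirubin, were counted at diet means below 62. The reference 3′ ends of Ugt1a1, Ugt1a5 and Ugt1a6a are identical over the windows searched, while that of Ugt1a7c lies further downstream and shared no window. Ugt1a5 was listed at 27.7, 62.9 and 86.9 on Cas-20% and 10.5, 18.7 and 36.9 on Cas-5%, with a change of -1.51 ± 0.27 (adjusted p = 0.00051). It was 35.5, 44.8 and 111 on Soy-20% + SAA and 15.2, 30.1 and 34.2 on Soy-10%, a change of -1.03 ± 0.29 (adjusted p = 0.027) that was not called without Soy-20% + SAA liver 5 or Soy-10% liver 1 or 2 (adjusted p up to 0.059). It was -1.01 ± 0.29 (adjusted p = 0.091) without libraries 3 to 6, -0.93 ± 0.38 (adjusted p = 0.21) with the slope covariate and -1.04 ± 0.23 (adjusted p = 0.044) against Soy-20%, and the last was lost without any 1 of 9 single livers (adjusted p up to 0.11). Ugt1a6a, whose enzyme acts on planar phenols, gave 0.45 ± 0.22 (adjusted p = 0.14) for casein and 0.73 ± 0.18 (adjusted p = 0.017) for soy, where it was 0.92 ± 0.28 (adjusted p = 0.12) without libraries 3 to 6, 0.82 ± 0.26 (adjusted p = 0.11) with the slope covariate and 0.34 ± 0.16 (adjusted p = 0.4) against Soy-20%. Ugt1a1 (-0.21 ± 0.29, adjusted p = 0.65 for casein, normal 95% interval -0.78 to 0.36) and Ugt1a7c (-0.01 ± 0.22, adjusted p = 0.99, interval -0.44 to 0.42) were not called. Summed, the 4 Ugt1a genes had 171 ± 45.7 normalized counts (SD, n = 6) on Cas-20% and 134 ± 32.1 on Cas-5%, and the sum passed the test neither for casein (-0.33 ± 0.17, adjusted p = 0.18) nor for soy (-0.20 ± 0.14, adjusted p = 0.34). The changes listed for Ugt1a5 and Ugt1a6a are therefore uncertain.

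The 14 glucuronide transferases summed to 25812 ± 1407 normalized counts (mean ± SD, n = 6) on Cas-20%, 29977 ± 2221 on Cas-5%, 30764 ± 3162 on Soy-20%, 22489 ± 5441 on Soy-20% + SAA and 35930 ± 2713 on Soy-10%. These sums include Ugt3a2, whose enzyme transfers other sugars, with means of 2228, 2715, 2505, 1065 and 2768 in the same order. For the glutathione transferases the sums were 86289 ± 8185, 75165 ± 4861, 93071 ± 8210, 86186 ± 5508 and 96636 ± 6756 in the same order, and for the sulfotransferases 8503 ± 1067, 6909 ± 783, 8077 ± 848, 7253 ± 1160 and 7515 ± 610. No test was run on these class sums. Among the glucuronide sums, the SD of the Soy-20% + SAA livers was the widest of the 5 diets.

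Among the glutathione transferases, the mu class (Gstm) held both directions. Gstm1, an abundant cytosolic enzyme that conjugates electrophiles, rose, while Gstm2, Gstm6 and Gstm7 fell after casein restriction. Gstm1 counts were 12143, 14195 and 17823 on Cas-20% and 17602, 20765 and 23364 on Cas-5%, a change of 0.54 ± 0.10 (adjusted p = 0.001). They were 14780, 17086 and 22909 in Soy-20% livers, 12778, 16252 and 18850 in Soy-20% + SAA livers and 22096, 23449 and 24283 in Soy-10% livers. Soy-10% livers lay above all Soy-20% + SAA livers, and 1 Soy-20% liver reached into their range. The soy change was 0.51 ± 0.09 (adjusted p = 0.0021), 0.65 ± 0.10 (adjusted p = 0.0051) without libraries 3 to 6, 0.67 ± 0.10 (adjusted p = 0.002) with the slope covariate and 0.38 ± 0.09 (adjusted p = 0.047) against Soy-20%. The last was not called when any 1 of 11 single livers was left out (adjusted p up to 0.11).

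Gstm7 counts were 626, 725 and 965 on Cas-20% and 328, 350 and 391 on Cas-5%, a change of -1.07 ± 0.10 (adjusted p = 1.4e-06) with no overlap. Gstm6 counts were 1033, 1145 and 1350 on Cas-20% and 469, 595 and 678 on Cas-5%, a change of -0.97 ± 0.09 (adjusted p = 1.4e-06) with no overlap. Gstm2 counts were 642, 764 and 1041 on Cas-20% and 279, 378 and 400 on Cas-5%, a change of -1.10 ± 0.11 (adjusted p = 2.8e-06) with no overlap. In all 3 the restricted livers were the lower ones. In soy, Gstm7 had 449, 524 and 679 in Soy-20% livers, 564, 641 and 706 in Soy-20% + SAA livers and 346, 450 and 512 in Soy-10% livers. Its change of -0.55 ± 0.10 (adjusted p = 0.0035) became -0.42 ± 0.12 (adjusted p = 0.098) without libraries 3 to 6, -0.43 ± 0.12 (adjusted p = 0.059) with the slope covariate and -0.31 ± 0.11 (adjusted p = 0.24) against Soy-20%. Gstm6 (-0.27 ± 0.10, adjusted p = 0.077) and Gstm2 (-0.51 ± 0.22, adjusted p = 0.11) were not called in soy. Gstm4 was called in soy (0.39 ± 0.11, adjusted p = 0.031; not called without any 1 of 6 single livers, adjusted p up to 0.067), where it was 0.44 ± 0.15 (adjusted p = 0.15) without libraries 3 to 6, 0.52 ± 0.14 (adjusted p = 0.058) with the slope covariate and 0.22 ± 0.10 (adjusted p = 0.38) against Soy-20%. It was not called in casein (0.24 ± 0.10, adjusted p = 0.092), and the difference of the 2 effects was -0.16 ± 0.16 (adjusted p = 0.58). Gstm3 and Gstm5 were called in neither restriction comparison.

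Further glutathione transferases with other duties fell after casein restriction. Gstt3, of the theta class that acts on small halogenated compounds, had 847, 1209 and 1432 on Cas-20% and 340, 370 and 569 on Cas-5%, a change of -1.52 ± 0.14 (adjusted p = 1.2e-06) with no overlap. Gstk1, the kappa enzyme of mitochondria and peroxisomes, had 1406, 1726 and 1936 on Cas-20% and 796, 843 and 891 on Cas-5%, a change of -1.0 ± 0.08 (adjusted p = 1.5e-07). Gstz1, which is also maleylacetoacetate isomerase of tyrosine breakdown, had 5442, 5863 and 6352 on Cas-20% and 3286, 3641 and 3982 on Cas-5%, a change of -0.67 ± 0.07 (adjusted p = 3e-06). In both the casein diets did not overlap. Mgst1, an integral membrane enzyme of the endoplasmic reticulum and mitochondria, had 28053, 34817 and 43913 on Cas-20% and 21517, 25450 and 27063 on Cas-5%, a change of -0.49 ± 0.10 (adjusted p = 0.0022) with no overlap.

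In the soy diets, Gstk1 and Gstz1 were called lower against Soy-20% + SAA with all libraries and in none of the other 3 settings, and Gstt3 and Mgst1 were not called. Gstk1 had 1278, 1406 and 1749 in Soy-20% livers, 1396, 1672 and 1942 in Soy-20% + SAA livers and 1093, 1170 and 1256 in Soy-10% livers, below every liver of both soy control diets. Its soy change was -0.49 ± 0.09 (adjusted p = 0.0031), -0.26 ± 0.07 (adjusted p = 0.094) without libraries 3 to 6, -0.31 ± 0.09 (adjusted p = 0.078) with the slope covariate and -0.28 ± 0.07 (adjusted p = 0.097) against Soy-20%. Gstz1 gave -0.33 ± 0.07 (adjusted p = 0.0062), -0.20 ± 0.08 (adjusted p = 0.22) without libraries 3 to 6, -0.22 ± 0.07 (adjusted p = 0.12) with the slope covariate and -0.20 ± 0.06 (adjusted p = 0.14) against Soy-20%. Gstt3, at 746, 986 and 1249 in Soy-20% livers, 654, 929 and 1492 in Soy-20% + SAA livers and 605, 735 and 1032 in Soy-10% livers, gave -0.36 ± 0.19 (adjusted p = 0.2). Mgst1, at 35080, 38879 and 42829 in Soy-20% livers, 27615, 33872 and 36419 in Soy-20% + SAA livers and 30674, 37685 and 45331 in Soy-10% livers, gave 0.18 ± 0.10 (adjusted p = 0.2).

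Gstp1, of the pi class, was called higher after casein restriction and, against Soy-20% + SAA but not Soy-20%, after soy restriction. It had 270, 448 and 616 on Cas-20% and 467, 664 and 1281 on Cas-5%, a change of 0.69 ± 0.23 (adjusted p = 0.036) in diets that overlap. Left out singly, 7 livers took the casein call away (adjusted p up to 0.098). The casein call was also lost with DESeq2, with the slope covariate and with all 30 livers in 1 fit. Its soy change was 0.93 ± 0.22 (adjusted p = 0.012), 1.26 ± 0.24 (adjusted p = 0.013) without libraries 3 to 6 and 1.27 ± 0.27 (adjusted p = 0.019) with the slope covariate, and against Soy-20%, where counts were 402, 711 and 1127, it was 0.16 ± 0.23 (adjusted p = 0.86). Summed with its near copy Gstp2, it gave 0.70 ± 0.23 (adjusted p = 0.036) for casein and 0.93 ± 0.22 (adjusted p = 0.012) for soy.

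Of the alpha class, Gsta2 and Gsta4 rose in soy against the supplemented control and were not called against Soy-20% or in casein. Gsta2, an inducible alpha enzyme, had 213, 334 and 444 in Soy-20% livers, 169, 217 and 278 in Soy-20% + SAA livers and 364, 426 and 594 in Soy-10% livers. Its change was 1.03 ± 0.14 (adjusted p = 0.00068) against Soy-20% + SAA, 1.36 ± 0.18 (adjusted p = 0.0025) without libraries 3 to 6, 1.2 ± 0.19 (adjusted p = 0.0024) with the slope covariate and 0.40 ± 0.16 (adjusted p = 0.3) against Soy-20%. Gsta4, which conjugates aldehydes from lipid peroxidation, gave 0.61 ± 0.13 (adjusted p = 0.0092), 0.92 ± 0.17 (adjusted p = 0.012), 0.89 ± 0.15 (adjusted p = 0.0047) and 0.15 ± 0.12 (adjusted p = 0.69) in the same order. In these 2 genes the mean of livers 3 to 6 was above that of livers 1 and 2 (240 against 173 in Gsta2, 568 against 420 in Gsta4), so the supplemented control was lower in the libraries that do not stand apart. Summed with Gsta1, Gsta2 gave 1.02 ± 0.15 (adjusted p = 0.001) for soy and -0.28 ± 0.34 (adjusted p = 0.59) for casein. Gsta3, the constitutive alpha enzyme of liver, had 17141, 18397 and 19422 on Cas-20% and 13939, 16389 and 19907 on Cas-5%, a difference of -0.12 ± 0.09 (adjusted p = 0.34) with an interval of -0.30 to 0.06, and its soy interval was -0.15 to 0.13.

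Mgst3, a microsomal enzyme with peroxidase activity, had 80.9, 142 and 148 in Soy-20% livers, 21.1, 34.4 and 109 in Soy-20% + SAA livers and 143, 152 and 190 in Soy-10% livers. The change of 1.74 ± 0.30 (adjusted p = 0.0023) fell to 0.87 ± 0.19 (adjusted p = 0.027) without libraries 3 to 6, whose mean was 29.2 against 87 in livers 1 and 2, to 1.09 ± 0.26 (adjusted p = 0.031) with the slope covariate, and was 0.36 ± 0.14 (adjusted p = 0.28) against Soy-20%. Gsto1, an omega enzyme with thioltransferase activity, gave 0.40 ± 0.10 (adjusted p = 0.015), 0.62 ± 0.11 (adjusted p = 0.011) without those libraries, 0.59 ± 0.11 (adjusted p = 0.0074) with the slope covariate and 0.22 ± 0.07 (adjusted p = 0.16) against Soy-20%. Gstt1, a further theta enzyme, was at 2894, 3135 and 3435 on Cas-20% and 2673, 2858 and 3042 on Cas-5% and was called in neither restriction comparison, and neither were Gstt2, Gstp3 and Gsta1.

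**Figure D3:**
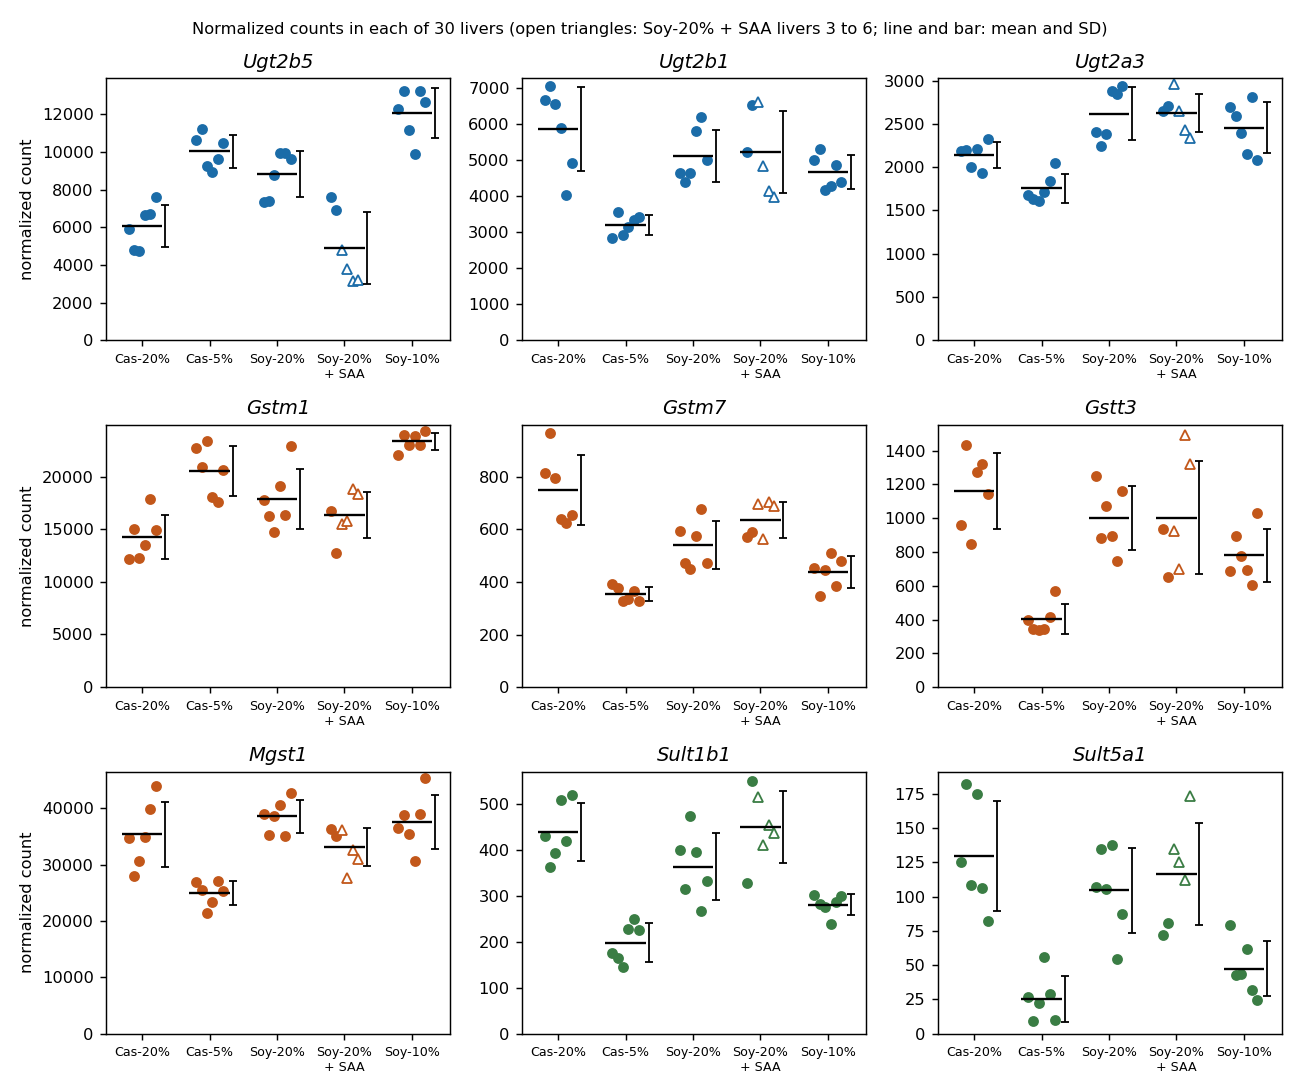
Normalized counts (vertical axis, from 0) in each of the 30 livers for 9 genes of the 3 classes; lines and bars give the mean and SD of 6 livers, and open triangles are Soy-20% + SAA libraries 3 to 6. Cas-5% livers lie wholly below Cas-20% livers in Ugt2b1, Gstm7, Gstt3, Mgst1, Sult1b1 and Sult5a1 and wholly above them in Ugt2b5.

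Of the 7 sulfotransferases, 5 fell and 1 rose after casein restriction. Sult5a1 had 81.9, 117 and 182 on Cas-20% and 9.23, 24.5 and 55.7 on Cas-5%, a change of -2.31 ± 0.31 (adjusted p = 3.7e-05). Sult1b1, which sulfates phenols and thyroid hormones, had 363, 426 and 520 on Cas-20% and 146, 202 and 251 on Cas-5%, a change of -1.12 ± 0.13 (adjusted p = 7.7e-06). In both, every restricted liver was below every control liver. Sult1d1, which sulfates catecholamines and lies next to Sult1b1 on chromosome 5, had 1048, 1217 and 1296 on Cas-20% and 710, 754 and 1064 on Cas-5%, a change of -0.54 ± 0.10 (adjusted p = 0.00061). Sult1a1, the main phenol sulfotransferase of liver, had 1675, 2122 and 2563 on Cas-20% and 1226, 1463 and 1848 on Cas-5%, a change of -0.52 ± 0.11 (adjusted p = 0.0025). In these 2 the diets overlapped at 1 or more livers.

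Sult2a7, of the hydroxysteroid family, was counted at 15, 27.5 and 42.8 on Cas-20% and 6.79, 9.64 and 11.9 on Cas-5%, a change of -1.60 ± 0.26 (adjusted p = 0.00024). The riser was Sult1c2, at 27.4, 57.4 and 75.3 on Cas-20% and 56.3, 85.4 and 127 on Cas-5%, with 0.68 ± 0.22 (adjusted p = 0.032). That call was lost without any 1 of 5 single livers (adjusted p up to 0.088) and with the slope covariate. Sult2a8, a hydroxysteroid enzyme that sulfates bile acids, had 3466, 4502 and 5494 on Cas-20% and 3593, 4327 and 4837 on Cas-5% and gave -0.05 ± 0.10 (adjusted p = 0.74), with an interval of -0.25 to 0.15.

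In soy, Sult5a1, Sult1a1 and Sult1b1 fell against Soy-20% + SAA and none rose. Sult5a1 had 54.7, 106 and 138 in Soy-20% livers, 71.7, 119 and 173 in Soy-20% + SAA livers and 24.7, 43.2 and 79.2 in Soy-10% livers. Its change was -1.31 ± 0.26 (adjusted p = 0.0061), -0.69 ± 0.31 (adjusted p = 0.3) without libraries 3 to 6, -0.79 ± 0.28 (adjusted p = 0.15) with the slope covariate and -1.15 ± 0.25 (adjusted p = 0.036) against Soy-20%. The last was not called without any 1 of 7 single livers (adjusted p up to 0.1). Sult1a1 had 1539, 1701 and 2071 in Soy-20% livers, 1836, 2404 and 3322 in Soy-20% + SAA livers and 1202, 1415 and 1705 in Soy-10% livers, with changes of -0.83 ± 0.13 (adjusted p = 0.0013), -0.54 ± 0.12 (adjusted p = 0.035), -0.56 ± 0.13 (adjusted p = 0.034) and -0.31 ± 0.09 (adjusted p = 0.13) in the same order. Sult1b1 had 268, 364 and 475 in Soy-20% livers, 329, 447 and 551 in Soy-20% + SAA livers and 240, 285 and 304 in Soy-10% livers, with changes of -0.68 ± 0.11 (adjusted p = 0.0016), -0.65 ± 0.15 (adjusted p = 0.04), -0.73 ± 0.14 (adjusted p = 0.0093) and -0.37 ± 0.11 (adjusted p = 0.15). Sult1a1 and Sult1b1 were called in the first 3 of these and not against Soy-20%. Sult2a8 was not called (0.63 ± 0.23, adjusted p = 0.067), and its mean on Soy-20% + SAA was 4670 in livers 1 and 2 and 2450 in livers 3 to 6.

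Casein and soy effects were next compared directly in the 24 livers of 4 diets. The log2 change after soy restriction was subtracted from that after casein restriction. Protein fell from 20% to 5% in casein and from 20% to 11.5% in soy. Protein source and depth of protein restriction therefore cannot be told apart in this difference. The difference passed the test in 10 of 41 members, all with the casein effect the more negative, against 8.69% of all genes (3.20% positive, 5.49% negative). Of the 10, 8 were glutathione transferases (Gsta2, Gsta4, Gstk1, Gstm6, Gstm7, Gstt3, Gstz1, Mgst1), 1 was the glucuronide transferase Ugt2b1 and 1 the sulfotransferase Sult2a7. The difference was -0.71 ± 0.14 (adjusted p = 0.004) in Gstm6, -0.67 ± 0.14 (adjusted p = 0.0063) in Mgst1, -1.16 ± 0.26 (adjusted p = 0.0081) in Gstt3, -0.51 ± 0.12 (adjusted p = 0.01) in Gstk1 and -0.70 ± 0.18 (adjusted p = 0.019) in Ugt2b1. In Gsta2 (-1.30 ± 0.41, adjusted p = 0.047) and Gsta4 (-0.91 ± 0.26, adjusted p = 0.032) the soy effect was a rise and the casein effect was not called. The Gsta2 difference was not called in 17 of 24 leave-outs of a single liver, that of Gsta4 in 6 and that of Gstm7 in 4, with adjusted p up to 0.093. With Soy-20% in place of Soy-20% + SAA, 9 members passed (all genes, 5.99%), and 7 of the 10 were among them. Gsta2, Gsta4 and Sult2a7 were no longer called there. With the slope covariate Ugt2b1 and Sult2a7 were no longer called. Without libraries 3 to 6 the count was 5 (all genes, 2.27%), of which Gstk1, Gstm6, Gstt3 and Gstz1 were among the 10. It was 16 without Soy-20% + SAA liver 1 (all genes, 15.4%). With the unsupplemented control the difference was -1.17 ± 0.21 (adjusted p = 0.0012) in Gstt3, -0.72 ± 0.11 (adjusted p = 0.00012) in Gstk1 and -0.46 ± 0.14 (adjusted p = 0.045) in Mgst1.

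**Figure D4:**
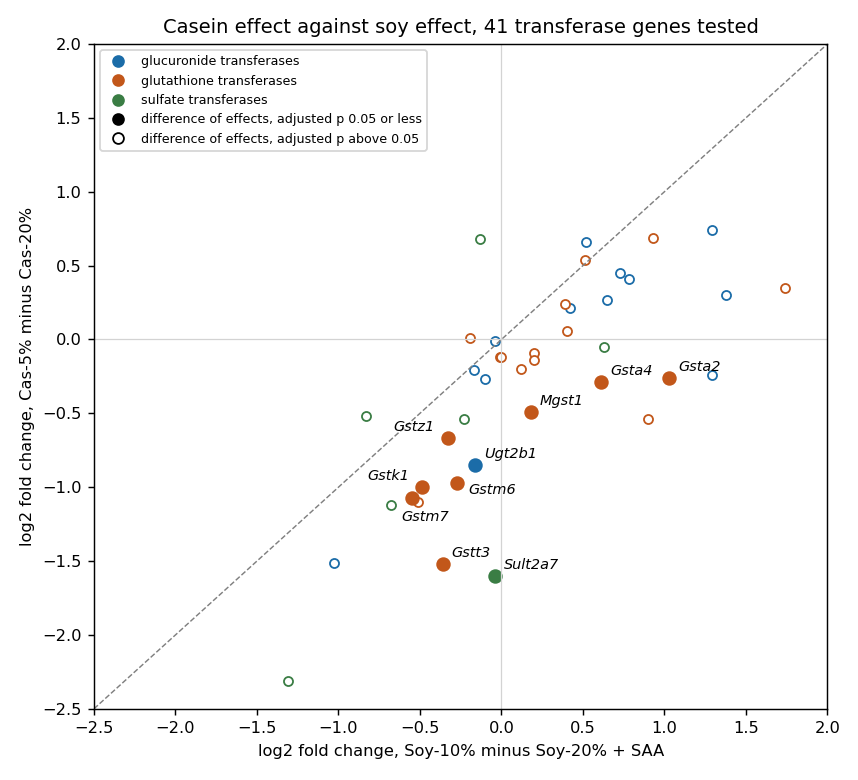
Log2 fold change after casein restriction (vertical axis) against that after soy restriction with the supplemented control (horizontal axis) for 41 genes; the dashed line marks equal effects and filled points had a difference of effects with an adjusted p of 0.05 or less. All 10 filled points lie below the line, and 8 of them are glutathione transferases.

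The protein sources were also compared at like sulfur amino acid contents, in the restricted and in the control diets. The restricted diets held 11.5% soy protein and 5% casein, so between them protein source and protein content cannot be told apart. Between Soy-10% and Cas-5%, 15 members differed, 14 of them higher on Soy-10%, against 10.7% of all genes (6.14% higher and 4.59% lower on Soy-10%). They were 11 glutathione transferases, Ugt2b1, Ugt2a3, Sult1b1 and, in the other direction, Sult1c2. The diets did not overlap in 9 members (22.0%; all genes, 5.86%). Gsta2 was 104, 155 and 276 on Cas-5% and 364, 426 and 594 on Soy-10%, a difference of 1.34 ± 0.19 (adjusted p = 0.00019) with no overlap. Gstk1 differed by 0.46 ± 0.06 (adjusted p = 4.8e-05), Ugt2b1 by 0.53 ± 0.07 (adjusted p = 0.00021) and Ugt2a3 by 0.47 ± 0.08 (adjusted p = 0.0012), also with no overlap, and Sult1b1 by 0.48 ± 0.11 (adjusted p = 0.012) and Sult1c2 by -0.71 ± 0.16 (adjusted p = 0.0072) in diets that overlapped. Gstm7 (0.28 ± 0.09, adjusted p = 0.045) was not called in 9 of 12 leave-outs of a single liver and Gsta1 (1.95 ± 0.34, adjusted p = 0.0012) shares its 3′ end with other genes. Stellate cell markers differed between the same livers, with 4 of 5 lower on Soy-10% (summed normalized count 3437 to 4003, against 3776 to 5133 on Cas-5%), and cholangiocyte markers summed to 266 to 352 and 367 to 510, with 1 of 2 tested lower. Their part in the results was not tested. Between the control diets Soy-20% + SAA and Cas-20%, only Gstp3 passed the test (-0.59 ± 0.13, adjusted p = 0.038, lower on soy), against 2.43% of all genes (1.01% higher and 1.42% lower on soy). The control diets did not overlap in 3 members, Ugt2a3 with soy livers above and Gstp3 and Gstm6 with soy livers below (all genes, 2.69%). The Gstp3 call was absent without any 1 Cas-20% liver, without Soy-20% + SAA liver 3, 4, 5 or 6, with the slope covariate and without libraries 3 to 6, and the count was 8 without Soy-20% + SAA liver 1 and 5 without liver 2. In these leave-outs of liver 1 or 2 the share over all genes was not counted. These comparisons of protein source share livers with those of restriction, and their values are not independent of them.

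Blood markers moved with diet as well. Of 5 markers 4 were lower after casein restriction, with a summed normalized count of 15728 to 34944 on Cas-20% and 11503 to 19812 on Cas-5%, and 2 of 5 stellate cell markers were higher (3255 to 4101 and 3776 to 5133). Of 8 hepatocyte markers 1 rose and 1 fell. Whether these shares had a part in the members' changes was not tested.

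Adding methionine and cystine to the soy control diet (Soy-20% + SAA against Soy-20%) changed none of the 41 members by edgeR, with 15 at an unadjusted p under 0.05, while DESeq2 called 8 and 0.00838% of all genes passed in edgeR. Leaving out Soy-20% + SAA liver 1 gave 9 members and leaving out liver 2 gave 8. The share over all genes was not counted for the unadjusted p, with DESeq2 or in these leave-outs. These member counts therefore cannot be set against a background. Across the 41 members Pearson's r between 3′ G+C and the fold change was 0.302, and it was 0.300 over all genes. The points are genes that share the same 12 libraries, so no p is given. The diets overlapped in all 41 members, while they did not overlap in 2.04% of all genes. Ugt2b5 (-0.85 ± 0.21, adjusted p = 0.066) and Mgst3 (-1.39 ± 0.33, adjusted p = 0.065) were lower and Sult1a1 (0.51 ± 0.12, adjusted p = 0.065) was higher on the supplemented diet without passing the test.

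**Figure D5:**
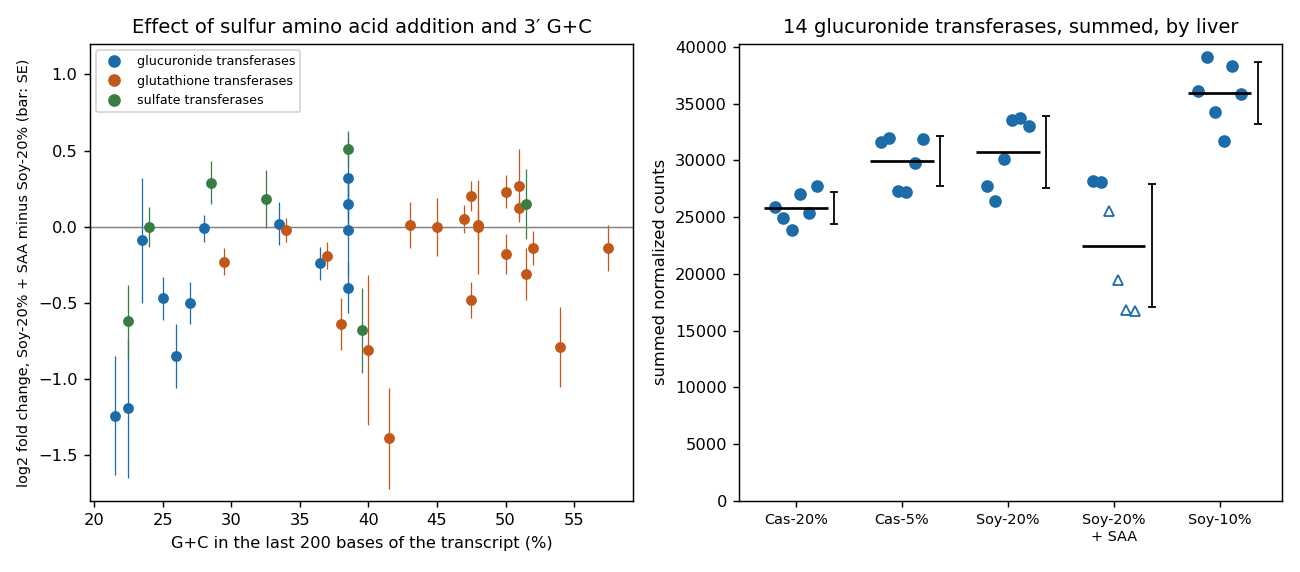
Left, log2 fold change with SE of Soy-20% + SAA against Soy-20% (vertical axis) by the G+C content of the last 200 transcript bases (horizontal axis) for 41 genes. Right, summed normalized counts of the 14 glucuronide transferases, Ugt3a1 and Ugt3a2 included, in each liver, with mean and SD. Open triangles are Soy-20% + SAA libraries 3 to 6, which lie below the diet's other 2 libraries.

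The cosubstrate pathways were read from lists of genes outside the members. In glutathione supply, 4 of the 5 tested genes rose after casein restriction and none fell (median 0.58, all genes 0.02). They were Gclc (0.58 ± 0.09, adjusted p = 0.00017) and Gclm (0.34 ± 0.06, adjusted p = 0.0008), the subunits of glutamate-cysteine ligase, Gss (0.77 ± 0.13, adjusted p = 0.0003), the synthetase, and Chac1 (1.40 ± 0.45, adjusted p = 0.03), which degrades glutathione. Soy restriction raised 3 of the 5, Gclc, Gclm and Gsr, but none with the slope covariate and 1, Gss, without libraries 3 to 6. Gclc gave 0.61 ± 0.12 (adjusted p = 0.0061), 0.31 ± 0.10 (adjusted p = 0.11) and 0.35 ± 0.09 (adjusted p = 0.056) in these 3 settings. Against Soy-20%, 1 of the 5 rose, Gss (0.42 ± 0.08, adjusted p = 0.025). Gclc averaged 4037 ± 412 normalized counts (SD, n = 6) on Cas-20% and 5958 ± 717 on Cas-5%.

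Sulfate and PAPS supply moved the other way. After casein restriction 7 of 13 tested genes fell and none rose (median -0.43). Papss2, which makes PAPS, went from 1503 ± 132 to 720 ± 73.3 normalized counts (-1.05 ± 0.08, adjusted p = 1.3e-07), and Suox, which oxidizes sulfite to sulfate, from 620 ± 52.6 to 393 ± 30.3 (-0.64 ± 0.07, adjusted p = 6.8e-06). Soy restriction lowered 3 and raised 1 of 13, and lowered 2 (Papss2 and Mpst) and raised none with the slope covariate and without libraries 3 to 6. Papss2 was lower by the test against both soy controls (-0.79 ± 0.10, adjusted p = 0.00035, and -0.38 ± 0.08, adjusted p = 0.025), and gave -0.53 ± 0.08 (adjusted p = 0.0023) with the covariate and -0.53 ± 0.10 (adjusted p = 0.013) without libraries 3 to 6. In UDP-glucuronate supply 1 of 8 genes rose and 1 fell after casein restriction, and 2 rose and 1 fell after soy restriction, where Ugdh, which makes UDP-glucuronate, rose (0.80 ± 0.13, adjusted p = 0.0014). In both alternatives Ugdh was the 1 gene called, at 0.51 ± 0.11 (adjusted p = 0.026) with the covariate and 0.55 ± 0.13 (adjusted p = 0.038) without libraries 3 to 6. Ugdh averaged 1016 ± 228 normalized counts on Soy-20% + SAA, 1452 ± 207 on Soy-20% and 1776 ± 191 on Soy-10%, and no gene of that list was called against Soy-20%.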

How the data were processed

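Liver RNA of 30 mice, 6 for each of 5 diets, was sequenced from the 3′ end with 1 library per mouse. The authors mapped and counted the reads with a commercial QuantSeq pipeline against GRCm38/mm10. The aligner, counter and annotation release are not given in the sources used here. The deposited raw counts (14173 genes, none with fewer than 90 over all livers) were tested, and the deposited normalized signal, which the authors obtained as counts divided by DESeq2 size factors (0.759 to 1.297; DESeq2 1.30, R 4.0.3), gave the printed levels. Of 1718 genes without a symbol, 1684 took one from GENCODE M21. Each comparison was fitted on the whole table over its own livers with edgeR 4.0.16 in R 4.3.3 (filterByExpr, TMM, quasi-likelihood F test, Benjamini-Hochberg adjusted p of 0.05 or less). Intervals are normal 95% intervals of the fold change. DESeq2 1.42.0 and the other alternatives are given in the closing section, and the fits were tested on simulated data.

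The symbol rule that gives the members, and the lists, were set with earlier results of these data known. Named members were, for each class and direction, up to 4 called genes with the smallest adjusted p in each restriction comparison, fewer in the other comparisons, and the 2 most counted genes called in neither. A near copy was a member with 10% or more of its 3′ windows in another member, since no protein table was used here. Mice were housed singly. Totals ran from 7694015 to 14565542 counts, and genes of few counts have the widest errors.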

Additional observations from a re-analysis of the deposited data

Results flagged for a closer look

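In 150 groups of 6 livers (30 members in 5 diets), 6 held a liver far from the other 5 by Dixon's 95% criterion, and chance alone gives about 1 in 20. Gsta2 had a normalized count of 509 in Cas-20% liver 2, with the others between 100 and 204. Gstp1 had 1281 in Cas-5% liver 2 (others 467 to 721) and 779 in Soy-20% + SAA liver 4 (others 329 to 414). Gstt3 had 569 in Cas-5% liver 6, with the others between 340 and 415. Sult2a7 had 30.4 in Soy-10% liver 6 (others 9.14 to 17), and Ugt1a5 had 15.2 in Soy-10% liver 1 (others 29.9 to 34.2).

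The casein and soy effects differed by edgeR's test of the difference itself in 10 members, each with the casein effect the more negative. The difference on the log2 scale was -1.16 in Gstt3, -0.53 in Gstm7, -0.67 in Mgst1, -0.35 in Gstz1, -0.51 in Gstk1, -0.91 in Gsta4, -0.70 in Ugt2b1, -1.30 in Gsta2, -0.71 in Gstm6 and -1.56 in Sult2a7, with adjusted p between 0.004 and 0.047. Without Cas-20% liver 2, the liver with 509 counts, the Gsta2 difference was -0.81 and was not called. Sult2a7 was not called with the slope covariate or with Soy-20% as the soy control. Without Soy-20% + SAA libraries 3 to 6, Gsta2, Gsta4, Gstm7, Mgst1, Ugt2b1 and Sult2a7 were not called.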

How the results depend on the processing

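No called member changed sign under any alternative run in which it was tested by itself. Members with near copies were left out of that tally where sums were tested, so 62 values in place of 72 were compared there. The Ugt1a sum gave -0.20 ± 0.14 for soy, where Ugt1a6a by itself gave 0.73 ± 0.18. Of 984 values with 1 liver left out, 879 stayed on the same side of the threshold and 105 were no longer called, and of 597 values under the other alternatives 546 and 51. The slope covariate removed 18 of 72 calls, leaving out Soy-20% + SAA libraries 3 to 6 removed 14 of 31, all 30 livers in 1 fit removed 9 of 72, and the remaining alternatives removed at most 4 of 72, apart from Soy-20% as the control of the difference, which removed 3 of 10. The near-copy sums and that control were chosen after seeing the data.

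Counts of members called moved by over 1.5 times as follows. For soy restriction the count was 12 with the slope covariate and 13 without libraries 3 to 6, against 20. Against Soy-20% (4) it was 7 with DESeq2, 1 with the slope covariate and 0 with all 30 livers. For sulfur amino acid addition (0) it was 8 with DESeq2 and 8 with all 30 livers. For the control diets of both sources (1) it was 4 with DESeq2, 2 with RLE size factors, 6 with all 30 livers, and 0 with the slope covariate and without libraries 3 to 6. The difference of effects (10) gave 5 without libraries 3 to 6. The cause of these shifts was not tested. Where the text gives no share over all genes for a setting, that share was not counted.

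With 1 liver left out the counts ranged from 20 to 23 for casein, 18 to 24 for soy, 0 to 4 against Soy-20%, 0 to 9 for sulfur amino acid addition, 0 to 8 and 14 to 17 for protein source in control and restricted diets, and 7 to 16 for the difference. The high ends for sulfur amino acid addition, the control diets and the difference came without Soy-20% + SAA liver 1.

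The same replicate numbers occur in each diet, but nothing in the labels ties them, and over 60 same-numbered pairs the correlation of deviations lay between -0.155 and 0.219 (median 0.012, 10 over 0.1). With the replicate block the count against Soy-20% was 2 in place of 4, and the other counts stayed within 1.5 times (22 for casein and 22 for soy).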

Other observations

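Conjugating enzymes outside the 3 classes also moved with diet. Of 15 tested genes of acetylation, methylation and amino acid conjugation, 6 fell and 1 rose after casein restriction, 3 fell and 2 rose after soy restriction, and 3 fell against Soy-20%. The 2 soy risers, Nat2 and Baat, gave 0.01 ± 0.11 (edgeR adjusted p = 0.99) and 0.05 ± 0.06 (adjusted p = 0.82) against Soy-20%. Soy calls of this list were not read with the slope covariate or without libraries 3 to 6. Nnmt, which methylates nicotinamide, averaged 898 ± 360 normalized counts (SD, n = 6) on Cas-20%, 29.1 ± 6.26 on Cas-5%, 454 ± 107 on Soy-20%, 477 ± 119 on Soy-20% + SAA and 147 ± 87.3 on Soy-10%. Its log2 fold change was -4.95 ± 0.26 (edgeR adjusted p = 3.3e-09) for casein and -1.70 ± 0.30 (adjusted p = 0.0026) for soy. Hnmt, the histamine methyltransferase, changed by -1.27 ± 0.13 (adjusted p = 3e-06) after casein restriction, and Glyat, which conjugates glycine, by 0.42 ± 0.10 (adjusted p = 0.005).

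Of 13 regulators tested, 3 rose after casein restriction and none fell: Nr1i3 (CAR) by 0.79 ± 0.20 (adjusted p = 0.0087), Ahr by 0.70 ± 0.11 (adjusted p = 0.00019) and Hnf4a by 0.27 ± 0.06 (adjusted p = 0.005). After soy restriction 2 rose and 2 fell against Soy-20% + SAA, and none was called against Soy-20%. Among 16 targets of NRF2 outside the members, 5 rose and 4 fell after casein restriction (all genes, 11.6% and 13.3%). Against Soy-20% + SAA, 7 rose and 1 fell after soy restriction (all genes, 8.51% and 8.47%), and against Soy-20% 1 rose and none fell. The list includes Gclc, Gclm and Gsr, whose soy calls were absent with the slope covariate and without libraries 3 to 6. Among 9 targets of CAR and PXR, 1 rose and 4 fell after casein restriction. After soy restriction 1 rose and 1 fell against Soy-20% + SAA, and none of the 9 was called against Soy-20%. The riser on casein was Cyp3a11, a main drug-oxidizing cytochrome, with means of 6162 on Cas-20%, 12765 on Cas-5%, 32522 on Soy-20%, 26900 on Soy-20% + SAA and 32884 on Soy-10%. The change on casein was 1.06 ± 0.13 (adjusted p = 1.1e-05).

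Of 8 male-biased genes, 2 fell after casein restriction (Cyp4a12b, -3.40 ± 0.31, adjusted p = 8.4e-07; Cyp4a12a, -1.06 ± 0.16, adjusted p = 9.3e-05) and 1 after soy restriction, and of 8 female-biased genes 2 were in the table and none passed the filter in either restriction comparison. Among markers of other cells, 1 of 5 endothelial markers rose after casein restriction and 1 of 6 Kupffer cell markers after soy restriction, 1 of 2 cholangiocyte markers fell after soy restriction, and the 1 pancreatic acinar marker tested fell after casein restriction. Summed pancreatic acinar markers reached 6075 normalized counts in 1 Soy-10% liver and at most 629 on Cas-20%.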
